A study of Mus musculus with 12 samples.

Results

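The 9 genes described here encode transcription factors of the trophoblast and other extraembryonic tissue of the mouse: Cdx2, Eomes, Elf5, Gata2, Gata3, Tfap2a, Tfap2c, Hand1 and Ascl2. They were picked by symbol out of the 23336 genes in the count table, and all 9 were found there. Total RNA of 12 mouse embryonic stem cell libraries had been sequenced, in 6 groups of 2. The differentiated groups were female cells labelled RlimKO, female WT cells (line Pgk12.1) and male WT cells (line E14), each grown as embryoid bodies in LIF-free medium for 3 days, then for 6 more days under 7.5% O2. The undifferentiated groups were the same 3 kinds of cells kept in medium with LIF. The strain label of every sample is C57BL/6. The RlimKO label and the male sex each stand for 1 line, so effects of genotype and of sex cannot be told apart from differences between lines. The labels do not say whether the 2 libraries of a group came from separate cultures.

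The first fate choice of the mouse embryo separates the trophectoderm, which builds the placenta, from the inner cell mass, from which embryonic stem cells are derived. Cdx2, Gata3 and Tfap2c act early in the trophectoderm, Eomes and Elf5 keep trophoblast stem cells in self-renewal, and Hand1, Gata2 and Ascl2 act as those cells turn into giant cells and spongiotrophoblast. Most of these factors are also used outside the trophoblast: Hand1 in extraembryonic and lateral plate mesoderm and heart, Cdx2 in the posterior embryo, Eomes in the primitive streak and visceral endoderm, Gata2 and Gata3 in blood and other lineages, and the AP-2 factors Tfap2a and Tfap2c in surface ectoderm, neural crest and germ cells. In RNA from a whole dish, fewer cells that use a gene and less RNA of it per cell cannot be told apart.

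The libraries held 2011919 to 5401940 counts in genes, of which the ribosomal RNA precursor Rn45s took 6.36% to 67.7%. Both extremes lay among the differentiated cells, the lowest share in male replicate 2 and the highest in RlimKO-labelled replicate 1. Differentiated male replicate 2 also had the most counts and the lowest share of Lars2, 0.0212% against 0.862% to 7.84% in the other libraries. The number in its title lies apart from those of the other differentiated libraries. Whether this library was prepared apart from them was not tested. Levels below are in CPM, counts divided by the TMM-scaled library size and multiplied by 1e6, and 1 count was worth 0.107 to 0.584 CPM, so that levels below 1 CPM rest on a few reads. Rlim, the gene named in the knockout label, had 294 ± 6.10 CPM in differentiated RlimKO-labelled cells against 262 ± 5.97 CPM in differentiated WT female cells, and 155 ± 7.02 CPM against 274 ± 10.6 CPM in the undifferentiated pair (mean ± SD, n = 2 each). Rlim was lower than in WT females only in the undifferentiated pair (log2 fold change -0.82 ± 0.15 (SE), adjusted p = 0.0437) and was not lower in the differentiated pair (0.17 ± 0.14, adjusted p = 0.654). Counts over the whole gene do not show a deletion of part of it, and the deleted part is not given in the sources used here, so the cells are called RlimKO-labelled throughout. All group differences below come from edgeR's quasi-likelihood test over 12814 genes with Benjamini-Hochberg adjusted p, with n = 2 libraries a group. All 6 group means were fitted together, and SE is the standard error of the fold change. A gene is said to have risen, fallen, or been higher or lower where its adjusted p is below 0.05.

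Of the 9 factors, Hand1, Cdx2, Gata3, Gata2, Eomes and Tfap2c had enough counts to be tested, and Ascl2, Tfap2a and Elf5 did not. Differentiated cells held Hand1 at 31.4 to 154.5 CPM in all 3 lines, where undifferentiated cells held almost none. Cdx2 and Gata3 also rose in all 3 lines, Gata2 rose in the RlimKO-labelled and male lines, Tfap2c fell in the WT female and male lines, and Eomes fell in the RlimKO-labelled line. In the RlimKO-labelled line 4 of the 6 tested factors rose and 1 fell, against 26.4% of all tested genes that were called higher and 21.6% that were called lower. In the WT female line 3 rose and 1 fell, against 26.5% and 22.2% of all tested genes, and in the male line 4 rose and 1 fell, against 28.7% and 25.4%. Several of the 6 reached the count minimum only through the groups where they were high, so these counts describe the factors and are no test of them as a group. The summed level of the 9 factors was 150 to 158 CPM in differentiated RlimKO-labelled cells, 55.0 to 55.9 CPM in differentiated WT female cells and 140 to 193 CPM in differentiated male cells, against 11.1 to 14.1, 26.8 to 30.5 and 32.4 to 32.7 CPM in the undifferentiated cells of the same lines. Hand1 carried most of these differences. Without Hand1 the other 8 summed to 39.0 to 47.8, 20.4 to 23.7 and 38.6 to 41.2 CPM in differentiated RlimKO-labelled, WT female and male cells, against 11.1 to 13.6, 26.8 to 30.5 and 31.7 to 32.7 CPM, so that in the WT female line their sum was lower after differentiation.

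**Figure D1:**
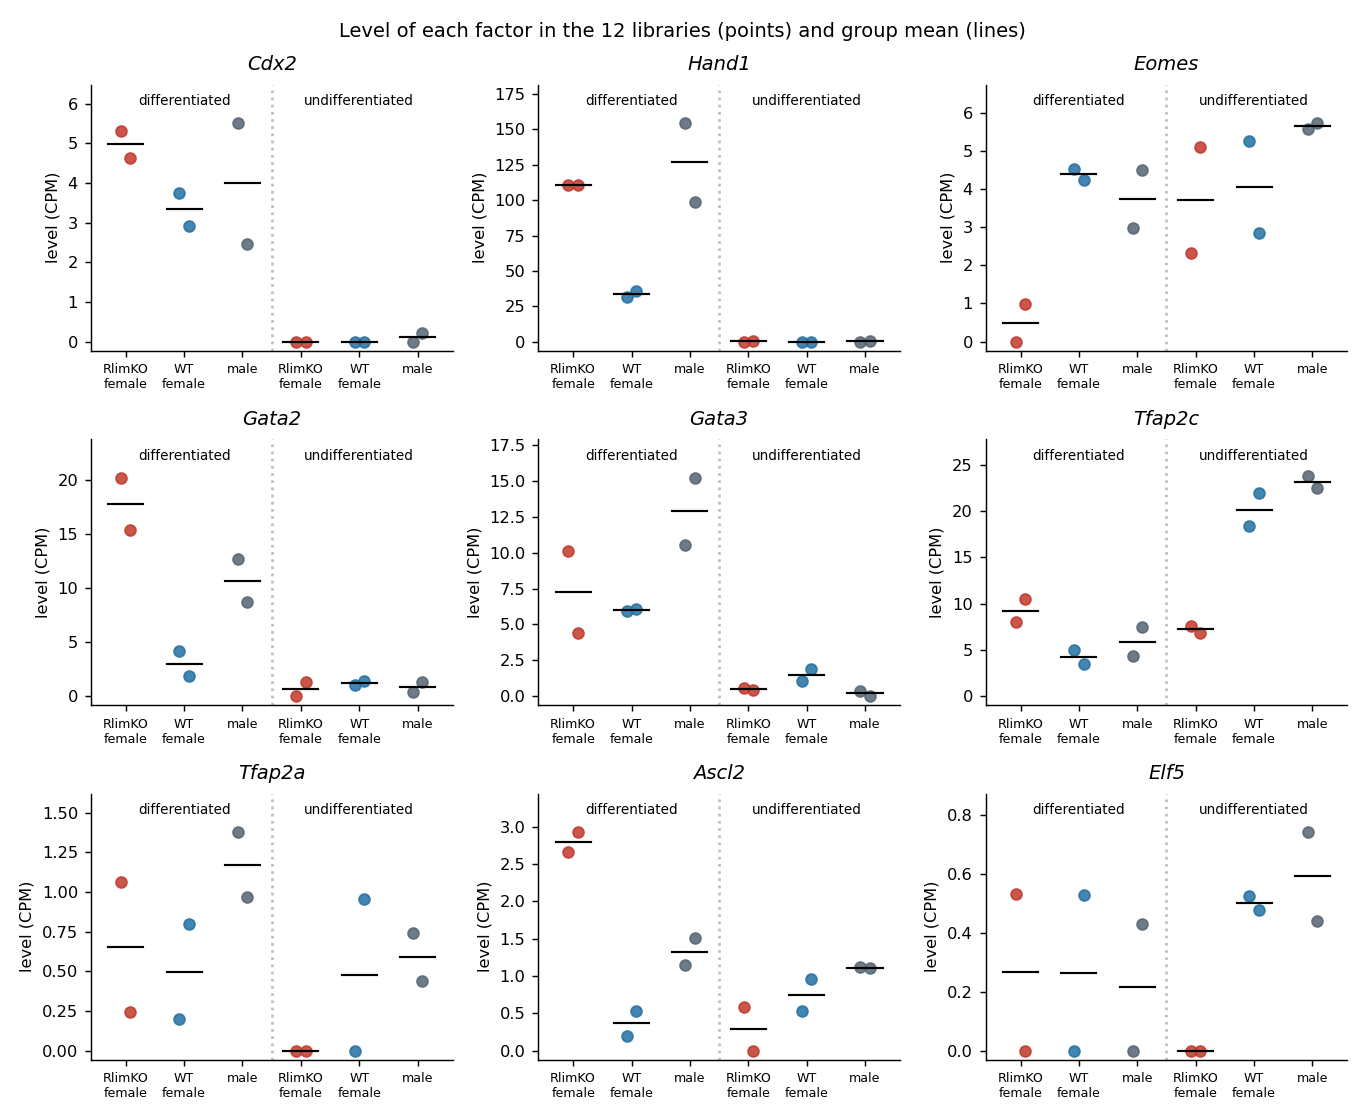
Level of each factor in CPM (vertical axis, linear, scaled for each gene), with a point for each library and a line at the mean of the 2 libraries of a group. Hand1 reached 98.8 to 154.5 CPM in differentiated RlimKO-labelled and male cells and 31.4 to 35.5 CPM in differentiated WT female cells, and no undifferentiated library passed 0.661 CPM.

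Stretches of DNA just before the RefSeq start site are shown for Cdx2, Gata2 and Gata3, which were higher after differentiation in at least 2 lines, and for Eomes, which was not higher in any. RefSeq promoter windows of build GRCm38.p6, the mm10 assembly, were found for 7 of the 9 genes, and Hand1 and Tfap2c were not among them. Each is written 5′ to 3′ on the strand of the gene, and capitals mark the AP-2 motif GCCNNNGGC, searched on both strands, where the letters that N stands for can be any base. The Gata3 start used by RefSeq lies inside the span annotated for the gene, downstream of its outermost start. The Cdx2 stretch is chr5:147307271-147307499 on the minus strand, Gata2 chr6:88193641-88193890 on the plus strand, Gata3 chr2:9878601-9878850 on the minus strand and Eomes chr9:118477939-118478188 on the plus strand.
Cdx2: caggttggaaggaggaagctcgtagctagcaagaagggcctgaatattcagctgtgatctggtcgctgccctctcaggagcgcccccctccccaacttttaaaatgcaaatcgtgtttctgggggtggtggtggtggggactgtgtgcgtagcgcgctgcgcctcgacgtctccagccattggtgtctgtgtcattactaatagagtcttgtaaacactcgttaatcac
Gata2: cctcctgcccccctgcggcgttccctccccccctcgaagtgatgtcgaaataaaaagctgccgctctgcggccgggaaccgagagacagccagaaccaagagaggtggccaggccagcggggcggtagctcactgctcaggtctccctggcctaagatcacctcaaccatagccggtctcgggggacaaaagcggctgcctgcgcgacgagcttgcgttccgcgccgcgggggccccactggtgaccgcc
Gata3: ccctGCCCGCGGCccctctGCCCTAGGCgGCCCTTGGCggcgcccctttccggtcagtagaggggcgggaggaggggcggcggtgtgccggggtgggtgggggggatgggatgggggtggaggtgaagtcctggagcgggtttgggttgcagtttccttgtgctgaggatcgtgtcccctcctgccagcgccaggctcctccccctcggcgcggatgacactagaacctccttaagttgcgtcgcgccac
Eomes: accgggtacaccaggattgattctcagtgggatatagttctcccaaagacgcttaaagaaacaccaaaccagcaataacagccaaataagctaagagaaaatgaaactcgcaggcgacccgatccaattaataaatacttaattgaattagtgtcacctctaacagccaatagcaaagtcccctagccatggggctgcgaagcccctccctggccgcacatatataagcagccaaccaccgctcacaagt
The Gata3 stretch held the motif at 3 places, 246, 231 and 221 bases before the start site, and the Gata2, Eomes and Cdx2 stretches as shown held none. A further match 16 bases before the RefSeq start of Cdx2 lies inside its first annotated exon and is not shown. Gata2 has a second RefSeq start, whose window lies inside the span annotated for the gene and is not shown either, and that window holds the motif once, 222 bases before the start. Of 32851 windows of 250 bases in the RefSeq table, 13.7% held the motif at least once, a share not matched for G and C content. The windows of Elf5, Ascl2 and Tfap2a, not shown, held no match. G and C made up 70% of the Gata3, 67.2% of the Gata2, 53.7% of the Cdx2 and 46.4% of the Eomes stretch, against a median of 52.4% over all windows. A match of letters is a description of the sequence and not a bound site.

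Cdx2 is a caudal-type homeodomain factor whose loss in the mouse embryo leaves no functional trophectoderm (chromosome 5, bases 147300805 to 147307270 on the minus strand). It stood at 5.31 and 4.63 CPM in differentiated RlimKO-labelled libraries, 3.75 and 2.91 CPM in differentiated WT female libraries and 5.51 and 2.47 CPM in differentiated male libraries. Among the 6 undifferentiated libraries a single Cdx2 count was seen, in male replicate 2 (0.220 CPM). Every differentiated library thus stood above every undifferentiated one. Against the limit of 3 counts over the empty group, the RlimKO-labelled line had at least 6.56-fold more Cdx2 once differentiated (adjusted p = 0.00217), and the WT female line at least 4.53-fold more (adjusted p = 0.00466). In the male line the ratio of CPM over the pooled counts was 24.9 (95% counting interval 4.25 to 1003), and the rise was called (log2 fold change 4.51 ± 0.99, adjusted p = 0.00202). These intervals and limits cover counting error only. No difference in Cdx2 between the differentiated lines was called, with log2 differences of 0.55 ± 0.62 (RlimKO-labelled minus WT female), -0.20 ± 0.60 (WT female minus male) and 0.35 ± 0.61 (RlimKO-labelled minus male).

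Eomes, a T-box factor that trophoblast stem cells need to keep dividing, was the 1 tested factor that differentiated RlimKO-labelled cells all but lacked (chromosome 9, bases 118478212 to 118486132 on the plus strand). It stood at 0 and 0.975 CPM in differentiated RlimKO-labelled libraries, 4.54 and 4.24 CPM in differentiated WT female libraries and 2.98 and 4.51 CPM in differentiated male libraries. Undifferentiated libraries had 2.34 and 5.11 CPM in the RlimKO-labelled line, 5.25 and 2.86 CPM in the WT female line and 5.57 and 5.73 CPM in the male line. Both differentiated RlimKO-labelled libraries lay below all 10 others. Eomes fell on differentiation in the RlimKO-labelled line (log2 fold change -2.52 ± 0.82, adjusted p = 0.0197), a call resting on 4 counts against 16. It was not called in the WT female line (0.13 ± 0.60, adjusted p = 0.88) or the male line (-0.56 ± 0.53, adjusted p = 0.391). Without undifferentiated RlimKO-labelled replicate 2 the change in that line was -1.94 (adjusted p = 0.192), and without differentiated RlimKO-labelled replicate 1 it was also -1.94 (adjusted p = 0.0872). The log2 fold change reached -6.80 without differentiated RlimKO-labelled replicate 2, whose 4 Eomes counts were the only ones in its group. An antisense gene, Gm33460, shares 2.84% of the exon bases of Eomes, and without a stated strand setting of the counting its reads cannot be told apart there.

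Elf5 is an ETS-domain factor whose promoter is methylated and silent in embryonic stem cells and open in trophoblast stem cells. It was close to absent in all 6 groups (chromosome 2, bases 103411688 to 103450989 on the plus strand). All 12 libraries together held 13 Elf5 counts, with 0.531 and 0 CPM in differentiated RlimKO-labelled libraries, 0 and 0.530 CPM in differentiated WT female libraries and 0 and 0.430 CPM in differentiated male libraries. Undifferentiated libraries had 0 and 0 CPM in the RlimKO-labelled line, 0.525 and 0.477 CPM in the WT female line and 0.743 and 0.441 CPM in the male line. At this depth no difference in Elf5 was detectable.

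Tfap2c, the AP-2 gamma gene, works in the trophectoderm and in early germ cells, and was the factor with the highest level per kilobase of exon in undifferentiated cells of every line (chromosome 2, bases 172549593 to 172558622 on the plus strand). Its libraries stood at 7.97 and 10.48 CPM in differentiated RlimKO-labelled cells, 4.93 and 3.44 CPM in differentiated WT female cells and 4.36 and 7.41 CPM in differentiated male cells. In undifferentiated cells they stood at 7.59 and 6.82 CPM in the RlimKO-labelled line, 18.4 and 21.9 CPM in the WT female line and 23.8 and 22.5 CPM in the male line. The WT female and male lines thus lost most of their Tfap2c, while the RlimKO-labelled line began low and its differentiated libraries lay just above its undifferentiated ones. Tfap2c fell in the WT female line (log2 fold change -2.24 ± 0.35, adjusted p = 1.02e-04) and in the male line (-1.92 ± 0.31, adjusted p = 1.19e-04). Both were called whichever of the 12 libraries was left out. The RlimKO-labelled line changed by 0.39 ± 0.38, which was not called (adjusted p = 0.406).

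Tfap2a, the AP-2 alpha gene, is known for surface ectoderm and neural crest and is also made in trophoblast. Its libraries had 1.06 and 0.244 CPM in differentiated RlimKO-labelled cells, 0.197 and 0.795 CPM in differentiated WT female cells and 1.38 and 0.967 CPM in differentiated male cells. Undifferentiated libraries had 0 and 0 CPM in the RlimKO-labelled line, 0 and 0.953 CPM in the WT female line and 0.743 and 0.441 CPM in the male line (chromosome 13, bases 40715302 to 40738376 on the minus strand). With 28 counts in all it was not tested in the filtered table, and without the filter no change on differentiation was called, the smallest adjusted p being 0.362 in the RlimKO-labelled line. Exons of 3 antisense genes share 1.49% to 7.75% of its exon bases. The other AP-2 genes Tfap2b, Tfap2d and Tfap2e had at most 3 counts in any group.

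Gata3 and Gata2 are zinc-finger factors that bind GATA sites and switch on trophoblast genes, and both are also used by blood cells and their progenitors. Gata3 (chromosome 2, bases 9857078 to 9890034 on the minus strand) stood at 10.1 and 4.39 CPM in differentiated RlimKO-labelled libraries, 5.92 and 6.09 CPM in differentiated WT female libraries and 10.6 and 15.3 CPM in differentiated male libraries. Undifferentiated libraries had 0.584 and 0.426 CPM in the RlimKO-labelled line, 1.05 and 1.91 CPM in the WT female line and 0.371 and 0 CPM in the male line. Differentiated and undifferentiated libraries did not overlap in any line. Gata3 rose in RlimKO-labelled cells (log2 fold change 3.70 ± 0.82, adjusted p = 0.00191) at a pooled ratio of 12.6 (95% counting interval 3.24 to 107). It rose in WT female cells (1.98 ± 0.65, adjusted p = 0.0207), and in male cells (6.22 ± 0.79, adjusted p = 1.32e-05) at a pooled ratio of 99.5 (17.6 to 3949). The wide intervals follow 2 counts in undifferentiated RlimKO-labelled cells and 1 in undifferentiated male cells. The call in the WT female line was lost without any 1 of its 4 libraries, with adjusted p = 0.143 and 0.0617 without undifferentiated replicates 1 and 2 and 0.0612 and 0.0679 without differentiated replicates 1 and 2, and in DESeq2 (adjusted p = 0.0527). An antisense gene, Gm13256, shares 3.90% of the exon bases of Gata3, and 9230102O04Rik on the same strand shares 1.94%.

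Gata2 (chromosome 6, bases 88193891 to 88207032 on the plus strand) stood at 20.2 and 15.4 CPM in differentiated RlimKO-labelled libraries, 4.14 and 1.85 CPM in differentiated WT female libraries and 12.6 and 8.70 CPM in differentiated male libraries. Undifferentiated libraries had 0 and 1.28 CPM in the RlimKO-labelled line, 1.05 and 1.43 CPM in the WT female line and 0.371 and 1.32 CPM in the male line. The differentiated RlimKO-labelled libraries were the highest of all 12, and those of the WT female line stood little above their undifferentiated ones. Gata2 rose in the RlimKO-labelled line (log2 fold change 4.53 ± 0.73, adjusted p = 1.54e-04, pooled ratio 22.8 with a counting interval of 7.60 to 113) and in male cells (3.44 ± 0.63, adjusted p = 3.30e-04), whichever of the 12 libraries was left out. In the WT female line the change of 1.28 ± 0.77 was not called (adjusted p = 0.181), on 28 counts against 5.

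Hand1, a basic helix-loop-helix factor that drives trophoblast giant cell formation and is also needed in extraembryonic mesoderm and heart, was the most abundant of the 9 after differentiation (chromosome 11, bases 57828705 to 57832818 on the minus strand). It stood at 110.5 and 110.9 CPM in differentiated RlimKO-labelled libraries, 31.4 and 35.5 CPM in differentiated WT female libraries and 154.5 and 98.8 CPM in differentiated male libraries. Undifferentiated libraries had 0 and 0.426 CPM in the RlimKO-labelled line, no count in the WT female line and 0 and 0.661 CPM in the male line. The differentiated WT female libraries lay well below those of the other lines, and the differentiated RlimKO-labelled pair lay within the range of the male pair. The rise was at least 44.2-fold in the WT female line (adjusted p = 8.79e-07). It was a pooled ratio of 449.8 (95% counting interval 80.4 to 17791, adjusted p = 4.02e-08) for RlimKO-labelled cells and 281 (95.9 to 1364, adjusted p = 9.23e-09) for male cells. Each line kept its call whichever of the 12 libraries was left out. Undifferentiated cells held 1, 0 and 3 Hand1 counts in the RlimKO-labelled, WT female and male lines, so the upper size of the rise is poorly set.

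Ascl2 is an imprinted basic helix-loop-helix gene needed for the spongiotrophoblast (chromosome 7, bases 142966829 to 142969264 on the minus strand). It had 2.66 and 2.93 CPM in differentiated RlimKO-labelled libraries, 0.197 and 0.530 CPM in differentiated WT female libraries and 1.15 and 1.504 CPM in differentiated male libraries. Undifferentiated libraries had 0.584 and 0 CPM in the RlimKO-labelled line, 0.525 and 0.953 CPM in the WT female line and 1.11 and 1.10 CPM in the male line. The differentiated RlimKO-labelled libraries were the highest of the 12, on 17 counts. With 51 counts in all Ascl2 was not tested in the filtered table. Without the filter, the difference of differentiated from undifferentiated cells in the RlimKO-labelled line was 3.23 ± 1.45 (adjusted p = 0.0728) and that of RlimKO-labelled from WT female cells after differentiation was 2.85 ± 1.15 (adjusted p = 0.18), neither called.

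**Figure D2:**
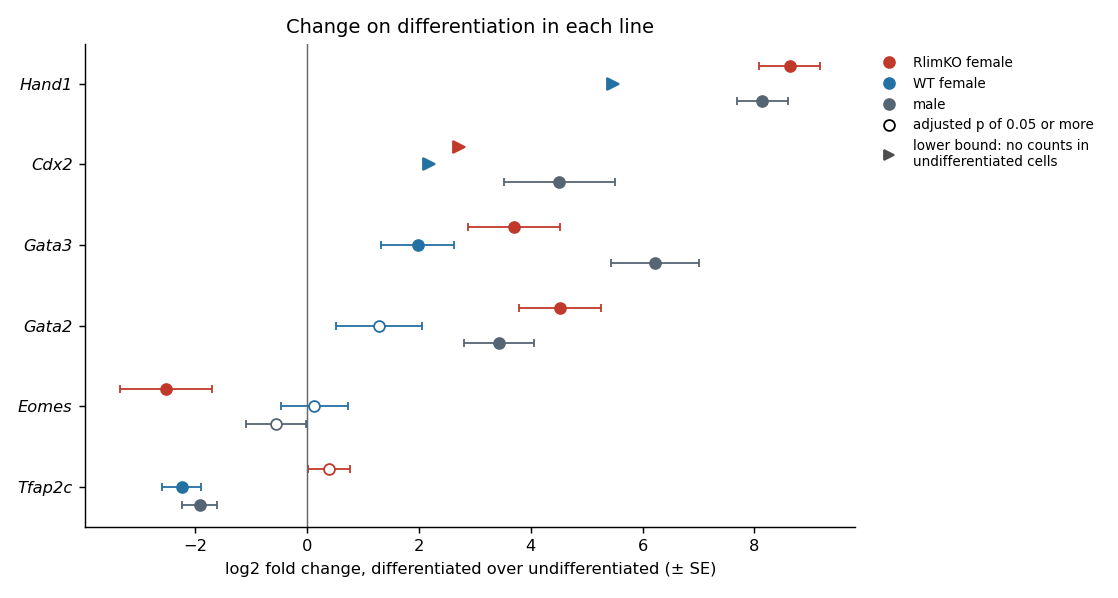
Log2 fold change of differentiated over undifferentiated cells (horizontal axis, bars ± SE) for the 6 tested factors in the RlimKO-labelled, WT female and male lines. Filled points have an adjusted p below 0.05 and open points do not, and triangles give the lower bound from 3 counts where undifferentiated cells had none. Hand1, Cdx2 and Gata3 lie right of 0 in every line, and Tfap2c lies left of 0 in the WT female and male lines.

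The lines were then set against each other after differentiation. RlimKO-labelled cells had more Hand1 and Gata2 than WT female cells, 2 of the 6 tested factors against 2.59% of all tested genes called either way. Hand1 was 3.32-fold higher in RlimKO-labelled than in WT female cells (log2 fold change 1.73 ± 0.25, adjusted p = 0.00292), and Gata2 was 5.65-fold higher (2.499 ± 0.52, adjusted p = 0.0187). The Hand1 call was lost without differentiated WT female replicate 1 (1.64, adjusted p = 0.0695) and without differentiated RlimKO-labelled replicate 2 (1.72, adjusted p = 0.0645), with little change in its size. The Gata2 call was lost without any 1 of the 4 libraries compared, with adjusted p = 0.166 and 0.131 without RlimKO-labelled replicates 1 and 2 and 0.0892 and 0.245 without WT female replicates 1 and 2. Gata2 then ranged between 2.03 and 3.22. Eomes (-2.71 ± 0.76, adjusted p = 0.0759) and Tfap2c (1.15 ± 0.36, adjusted p = 0.117) were not called. Eomes was called without differentiated male replicate 1 (adjusted p = 0.0039) or replicate 2 (0.00445), without the filter on low counts (0.013) and in a model of the 4 libraries alone (0.00356). Tfap2c was called without the same male libraries (0.0224 and 0.0196), in a model of the 4 libraries alone (0.0197) and without the 2 libraries of extreme Rn45s share (0.0228). Gata3 differed by 0.18 ± 0.49 (adjusted p = 0.971).

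WT female cells had less Hand1 and less Gata2 than male cells after differentiation, 2 of the 6 tested factors against 8.97% of all tested genes. Hand1 differed by -1.92 ± 0.25 on the log2 scale (adjusted p = 5.63e-04), a 3.78-fold lower level, in all 12 fits that left out 1 library, but not in a model of the 4 libraries alone (adjusted p = 0.117). Gata2 differed by -1.76 ± 0.51 (adjusted p = 0.0439), a call lost in 8 of those 12 fits, with the largest adjusted p, 0.364, without differentiated WT female replicate 2 (-1.33). It was also lost without differentiated WT female replicate 1 (-2.48, adjusted p = 0.111), without RlimKO-labelled replicates 1 and 2 (0.0815 and 0.0832), and, among undifferentiated libraries, without WT female replicates 1 and 2 (0.0628 and 0.0634) and male replicates 1 and 2 (0.056 and 0.0553). Gata3 stood at 6.01 ± 0.124 CPM in WT female and 12.9 ± 3.32 CPM in male cells, and the difference of -1.11 ± 0.45 was not called (adjusted p = 0.139), except without differentiated male replicate 1 (-1.32, adjusted p = 0.00325).

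RlimKO-labelled cells differed from male cells after differentiation in Eomes alone of the 6 tested factors, against 11.6% of all tested genes. Eomes differed by -2.52 ± 0.75 on the log2 scale (adjusted p = 0.0428), a 5.72-fold lower level, on 4 counts against 55. The call was lost in 7 of 12 fits that left out 1 library: without differentiated RlimKO-labelled replicate 1 (-1.94, adjusted p = 0.198) or 2 (-6.80, 0.10), WT female replicate 1 (0.0742) or 2 (0.0700) or male replicate 2 (0.0744), or undifferentiated male replicate 1 (0.0632) or 2 (0.0674). Hand1 in RlimKO-labelled cells stood at 111 ± 0.311 CPM against 127 ± 39.4 CPM in male cells (-0.19 ± 0.23, adjusted p = 0.651), and was called lower only without differentiated male replicate 2 (-0.51, adjusted p = 0.029). Gata2 (0.74 ± 0.46) and Gata3 (-0.93 ± 0.47) were not called, except without differentiated male replicate 1 (0.97, adjusted p = 0.0389, and -1.26, adjusted p = 0.0089).

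**Figure D3:**
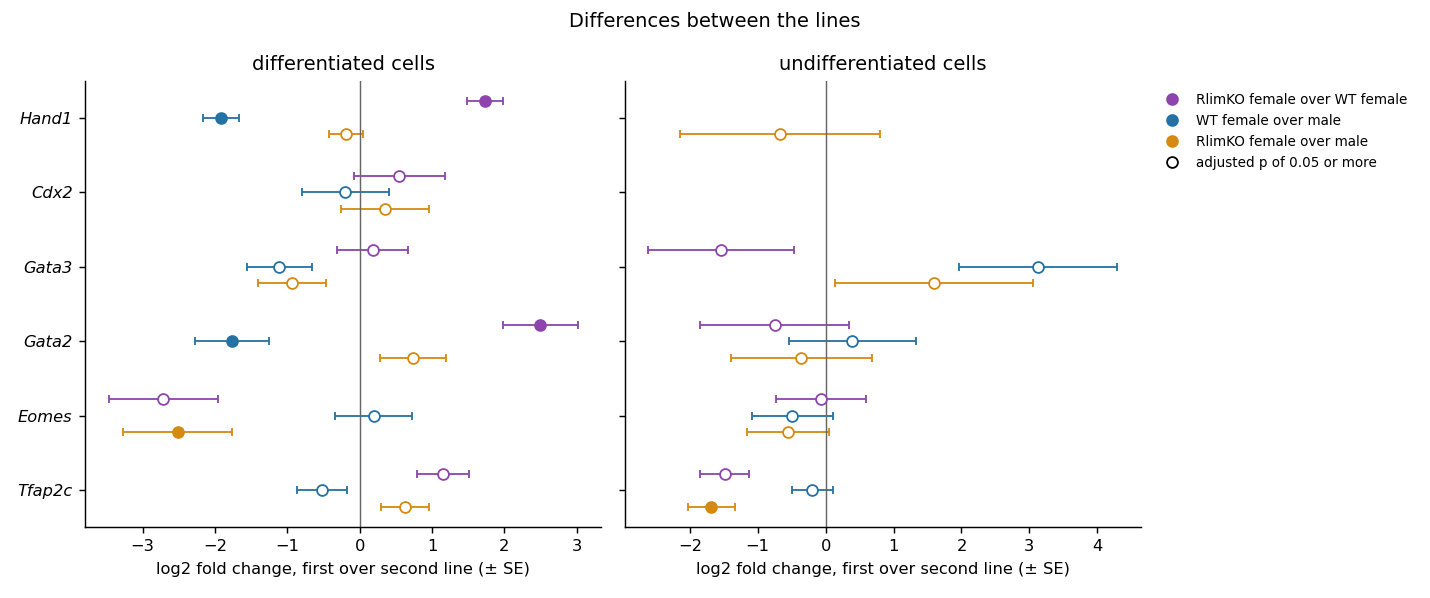
Log2 fold change between lines (horizontal axis, first line named over the second, bars ± SE) for the 6 tested factors in differentiated cells (left) and undifferentiated cells (right). Filled points have an adjusted p below 0.05, and comparisons in which a line had no count are left out. In differentiated cells Hand1 and Gata2 of the WT female line stand apart from both other lines, and in undifferentiated cells Tfap2c of the RlimKO-labelled line lies left of 0 against both.

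Before differentiation, Tfap2c was the one tested factor called between any of the lines. It averaged 7.20 ± 0.544 CPM in RlimKO-labelled cells, against 20.2 ± 2.51 CPM in WT female and 23.1 ± 0.909 CPM in male cells. Against male cells it was 3.21-fold lower (-1.68 ± 0.35, adjusted p = 0.00784), 1 of the 6 tested factors where 10% of all tested genes were called. That call was lost without undifferentiated RlimKO-labelled replicate 1 (-1.68, adjusted p = 0.0576) or replicate 2 (adjusted p = 0.125) or undifferentiated male replicate 1 (-1.56, adjusted p = 0.0703). Against WT female cells the 2.81-fold lower Tfap2c (-1.49 ± 0.36) was not called (adjusted p = 0.129). It was called without either differentiated male library (adjusted p = 0.00502 without replicate 1 and 0.00457 without replicate 2), without the filter (0.0436), in a model of the 4 libraries alone (0.0159) and without the 2 libraries of extreme Rn45s share (0.00467). By edgeR none of the 6 factors was called between RlimKO-labelled and WT female cells before differentiation, where 0.242% of all tested genes were, and 1 (Tfap2c) had an unadjusted p below 0.05, as did 1289 of the 12814 genes. None was called between WT female and male cells, where 6.63% of all tested genes were, and 1 (Gata3) had an unadjusted p below 0.05, as did 2749 of the 12814. DESeq2 also called 0 in both.

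The change on differentiation itself was compared between lines. For Tfap2c the change in the RlimKO-labelled line exceeded that in the male line by 2.31 ± 0.48 on the log2 scale (adjusted p = 0.0229), the only 1 of the 6 factors called there, where 2.61% of all tested genes were. It exceeded that in the WT female line by 2.63 ± 0.51, just short of the threshold (adjusted p = 0.0536), and was past it without either differentiated male library (adjusted p = 2.22e-04 and 1.66e-04), in DESeq2 (0.0383), without the filter (0.00237), in a model of these lines alone (3.28e-04) and without the 2 libraries of extreme Rn45s share (2.19e-04). The call against the male line was lost in 7 of 12 fits that left out 1 library, where the difference ranged between 2.07 and 2.46: without undifferentiated RlimKO-labelled replicates 1 and 2 (adjusted p = 0.0876 and 0.141), undifferentiated male replicates 1 and 2 (0.106 and 0.0923), differentiated RlimKO-labelled replicates 1 and 2 (0.0589 and 0.169) and differentiated WT female replicate 2 (0.0512). Between the RlimKO-labelled and WT female lines edgeR called none of the 6 factors, where 0.203% of all tested genes were called, and DESeq2 called 1. An unadjusted p below 0.05 was seen for 3 of the 6 (Tfap2c, Gata2 and Eomes) and for 1262 of all 12814 genes. Between the WT female and male lines edgeR called none, where 1.39% of all tested genes were called, and Gata3 alone of the 6 had an unadjusted p below 0.05 (-4.24 ± 1.24, adjusted p = 0.107), as did 1958 of all 12814 genes. DESeq2 also called 0 there. The difference in Gata3 was called without differentiated male replicate 1 (adjusted p = 0.0111) or replicate 2 (0.0469) and without the filter (0.0266). No difference between lines in the change of Hand1, Cdx2, Gata2 or Eomes was called. Cdx2 had no count in undifferentiated cells of both female lines, so a difference between those lines could not be called (SE 893). The other such tests of Cdx2 and Hand1 rest on few or no undifferentiated counts (SE 1.45 to 2.57), so they do not show that the rises were alike.

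Among the relatives of these factors, those of endoderm and mesoderm rose with them. Of 15 relatives, 6 had enough counts, and Hand2, Gata4, Gata5 and Gata6 rose and Elf3 fell in all 3 lines. Over all tested genes 26.4%, 26.5% and 28.7% were called higher in the RlimKO-labelled, WT female and male lines. Called lower were 21.6%, 22.2% and 25.4%. Gata5 had no count in undifferentiated cells and so could not be called lower. Hand2, the heart and limb relative of Hand1, reached 93.7 ± 7.29 CPM in differentiated RlimKO-labelled cells, 103.6 ± 4.46 CPM in differentiated WT female cells and 52.7 ± 36.8 CPM in differentiated male cells, against 0.852 ± 1.21, 0.238 ± 0.337 and 0.516 ± 0.205 CPM before. Per kilobase of exon, Hand1 stood at 55.4 ± 0.156 and Hand2 at 39.8 ± 3.1 CPM in differentiated RlimKO-labelled cells, 16.7 ± 1.47 and 44.1 ± 1.9 CPM in WT female cells and 63.4 ± 19.7 and 22.4 ± 15.7 CPM in male cells. Hand2 thus exceeded Hand1 in the WT female line and stood below it in the RlimKO-labelled and male lines. The male libraries of Hand2 (78.8 and 26.6 CPM) lay far apart, but both were below those of Hand1 (154.5 and 98.8 CPM). No difference in Hand2 between differentiated lines was called (WT female over male 1.006 ± 0.36, adjusted p = 0.0924). Elf3, an epithelial relative of Elf5, had 9.44 ± 0.931, 6.89 ± 2.25 and 9.11 ± 6.71 CPM in differentiated RlimKO-labelled, WT female and male cells, against 35.4 ± 5.44, 29.3 ± 2.36 and 21.7 ± 3.51 CPM in undifferentiated ones. Its fall in the male line was lost without undifferentiated or differentiated male replicate 1 (adjusted p up to 0.103). Cdx1 and Cdx4, the other caudal genes, had at most 4 counts in any group.

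**Figure D4:**
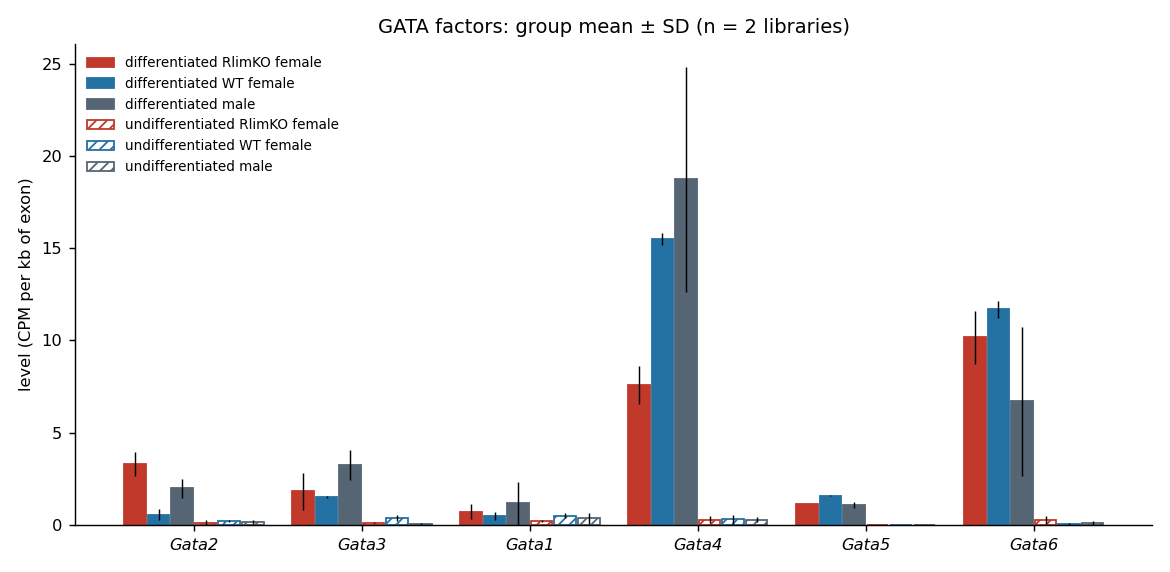
Level per kilobase of exon (CPM per kb, vertical axis, linear) of the 6 GATA genes in the 6 groups, bars at the mean and lines ± SD of 2 libraries. Gata4 and Gata6 are the tallest in differentiated cells of every line, Gata2 and Gata3 reach at most 3.29 CPM per kb, and Gata5 has no count in undifferentiated cells.

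Gata4 and Gata6 had higher mean levels than Gata2 and Gata3 after differentiation, and Gata5 did not in every line. Per kilobase of exon, Gata4, a factor of endoderm and heart, stood at 7.59 ± 1.012 CPM in RlimKO-labelled, 15.5 ± 0.315 CPM in WT female and 18.7 ± 6.10 CPM in male differentiated cells. Gata6, which specifies primitive endoderm, stood at 10.2 ± 1.44, 11.7 ± 0.456 and 6.70 ± 4.04 CPM per kilobase in the same groups. Gata2 stood at 3.29 ± 0.632, 0.556 ± 0.30 and 1.98 ± 0.514 CPM per kilobase, and Gata3 at 1.82 ± 1.014, 1.51 ± 0.0313 and 3.24 ± 0.834 CPM per kilobase. Gata5, at 1.13, 1.59 and 1.07 CPM per kilobase, lay below both in the RlimKO-labelled and male lines and above both in the WT female line. Where Gata2 was highest, in RlimKO-labelled cells, Gata4 was lowest, and it was lower there than in male cells (log2 fold change -1.33 ± 0.27, adjusted p = 0.00589, and 0.131 without differentiated RlimKO-labelled replicate 2). Gata1, the red blood cell factor, was not called in any line, with 2.84 ± 2.80 CPM at most, in differentiated male cells.

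Genes that act with these factors in trophoblast stem cells moved both ways. The list, which like the other lists was chosen with earlier results of these data known, holds 12 genes, 11 of them tested. In the RlimKO-labelled line 5 rose and 3 fell, in the WT female line 5 rose and 4 fell, and in the male line 7 rose and 3 fell. Over all tested genes 26.4%, 26.5% and 28.7% were called higher and 21.6%, 22.2% and 25.4% lower in these lines. The median log2 fold change of the 11 was 0.20, 0.36 and 0.60 in the RlimKO-labelled, WT female and male lines, against 0.10, 0.09 and 0.05 over all tested genes. The 3 that fell in every line, Esrrb, Sox2 and Klf5, are shared with embryonic stem cells. Esrrb stood at 11.4 ± 1.95, 28.0 ± 0.845 and 10.1 ± 5.18 CPM in differentiated RlimKO-labelled, WT female and male cells, against 317 ± 36.5, 328 ± 15.0 and 263 ± 20.3 CPM in undifferentiated ones. The 4 that rose in every line were Id2, Fgfr2, Bmp4 and Yap1. Fgfr2, the receptor through which FGF4 keeps trophoblast stem cells dividing, reached 46.3 ± 5.14, 56.6 ± 3.89 and 64.3 ± 23.0 CPM in the differentiated groups, against 3.65 ± 2.68, 6.49 ± 0.263 and 16.4 ± 1.13 CPM. Bmp4, a signal of the extraembryonic ectoderm and of mesoderm, reached 74.4 ± 1.45, 44.9 ± 10.7 and 97.0 ± 0.467 CPM, against 10.7 ± 0.610, 4.56 ± 1.72 and 8.64 ± 1.19 CPM. These 7 genes kept their calls in all 12 fits that left out 1 library, in each line. Eomes, which with Elf5 defines the trophoblast stem cell state, was not called higher in any line, and Elf5 was too low to test.

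Markers of differentiated trophoblast were at or near 0, apart from a few. Of 18 such genes, 7 had enough counts. The syncytiotrophoblast gene Synb, the spongiotrophoblast gene Tpbpa, the giant cell prolactin gene Prl2c2 and the labyrinth gene Ctsq had no count in any library, and Prl3d1, Prl3b1, Psg17, Syna and Gcm1 had at most 8 in any group. The summed level of the list was 47.8 to 57.1 CPM in RlimKO-labelled, 21.2 to 23.9 CPM in WT female and 41.1 to 53.9 CPM in male differentiated libraries, against 8.52 to 11.1, 11.9 to 12.6 and 21.2 to 21.5 CPM in undifferentiated ones. In the RlimKO-labelled line 6 of the 7 rose (3 to 6 when 1 library was left out), in the WT female line 1 (1 to 3), and in the male line 5 (3 to 5), and none fell. Over all tested genes 26.4%, 26.5% and 28.7% were called higher in those lines. Krt7 and Plac1 had no count in undifferentiated cells of both female lines, nor had Dlx3 in those of the WT female line, so there they could not fall. With genes absent from undifferentiated cells set at their lower bound, the median log2 fold change of the 7 was 2.76, 0.44 and 2.59. As fitted it was 3.84, 0.50 and 2.59, against 0.10, 0.09 and 0.05 over all tested genes. The counts and medians of this list thus describe it and are no test of it. The lowest counts came without undifferentiated RlimKO-labelled replicate 2 in the RlimKO-labelled line and without any of 8 libraries in the male line.

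Krt7, a keratin of trophoblast and other simple epithelia, was the 1 gene of that list that rose in all 3 lines. It reached 5.31 and 4.88 CPM in RlimKO-labelled, 8.88 and 5.56 CPM in WT female and 8.72 and 25.4 CPM in male differentiated libraries, against no count in both female lines and 2.23 and 1.76 CPM in the male line before. Rhox6, an X-linked homeobox gene of placenta and germ cells, had 15.4 and 20.2 CPM in RlimKO-labelled, 4.34 and 6.09 CPM in WT female and 6.89 and 4.73 CPM in male differentiated libraries. Like Gata2 and Ascl2 it was highest in RlimKO-labelled cells. It was higher there than in WT female cells (1.79 ± 0.39, adjusted p = 0.0221) and male cells (1.65 ± 0.37, adjusted p = 0.0114). In the same comparison of RlimKO-labelled with male cells Krt7 was lower (-1.78 ± 0.52, adjusted p = 0.0445), a call lost in 7 of the 12 fits without 1 library (adjusted p up to 0.295): all those without a differentiated library except male replicate 1, and those without either undifferentiated male library. The first of the Rhox6 calls was lost without any 1 of the 4 libraries compared (adjusted p up to 0.36) and the second without differentiated RlimKO-labelled replicate 2 (adjusted p = 0.2). Dlx3, a homeobox gene of the labyrinth and of skin, had 4.25 and 4.88 CPM in RlimKO-labelled, 1.38 and 0.530 CPM in WT female and 4.36 and 9.88 CPM in male differentiated libraries, lowest in the WT female line as Hand1 and Gata2 were. Its rise was called in RlimKO-labelled cells (4.03 ± 1.09, adjusted p = 0.00753, and 0.104 without undifferentiated RlimKO-labelled replicate 2) and in male cells (3.33 ± 0.74, adjusted p = 0.00188), and it was lower in WT female than in male cells after differentiation (-2.83 ± 0.67, adjusted p = 0.0205). That last call was lost without either differentiated WT female library (adjusted p up to 0.237). Phlda2, another gene of that list, was also lower in WT female than in male cells after differentiation. Before differentiation Phlda2 was already lower in both female lines than in male cells.

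Among the other lineages that use these factors, markers of lateral plate mesoderm, endoderm and blood rose in part or whole, germ cell genes fell, and those of surface ectoderm and neural crest moved both ways. Over all tested genes, 26.4%, 26.5% and 28.7% were called higher in the RlimKO-labelled, WT female and male lines. Called lower were 21.6%, 22.2% and 25.4%. Among the listed genes, 7 of 16 endoderm and 7 of 11 heart genes had no count in undifferentiated WT female cells. Such genes could not be called lower in that line, so the counts below describe the lists and are no test of them. Of 10 tested genes of lateral plate mesoderm and heart, 8 rose in the RlimKO-labelled line and 10 in each of the others, with a summed level of 494 to 497, 393 to 416 and 434 to 636 CPM in differentiated RlimKO-labelled, WT female and male libraries, against 15.8 to 19.6, 5.72 to 8.40 and 12.3 to 17.2 CPM before. Of 15 tested genes of primitive and visceral endoderm, 11, 14 and 15 rose in those lines. Of 12 tested genes of blood and endothelium, 7, 6 and 8 rose and Pecam1 fell in each. In differentiated male cells the summed blood level was 643 CPM in replicate 1 and 91.7 CPM in replicate 2, and Gata2, which blood progenitors use, was 12.6 and 8.70 CPM in the same libraries. Fibroblast genes summed to 3089 to 11732 CPM over the differentiated libraries and to at most 63.9 CPM over the undifferentiated ones. Of 11 genes of the primitive streak 3 were tested, of which Evx1 rose in each line and Wnt3 in the male line (0 to 2, 0 to 1 and 1 to 3 rose in the RlimKO-labelled, WT female and male lines when 1 library was left out). The streak list summed to 6.10 to 7.44, 10.6 to 11.6 and 13.3 to 24.6 CPM in differentiated libraries of those lines, against 2.98 to 3.50, 2.86 to 4.73 and 5.73 to 8.17 CPM before, while Mesp1 had no count in any differentiated library and T had counts in WT female ones alone, at 0.395 and 0.795 CPM. Of 11 genes of surface ectoderm and neural crest 5 were tested, of which Sox9 and Snai2 rose and Grhl2 and Foxd3 fell in each line. That list summed to 66.9 to 67.5, 47.7 to 48.5 and 54.8 to 65.2 CPM in differentiated libraries, against 38.8 to 45.5, 48.6 to 50.9 and 49.8 to 51.6 CPM before, with Krt5 at no count in any library. Of 6 tested germ cell genes 4, 5 and 6 fell in the RlimKO-labelled, WT female and male lines and none rose (in the WT female line 3 to 5 fell when 1 library was left out). The part of these cell types in the levels of the 9 factors was not tested.

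**Figure D5:**
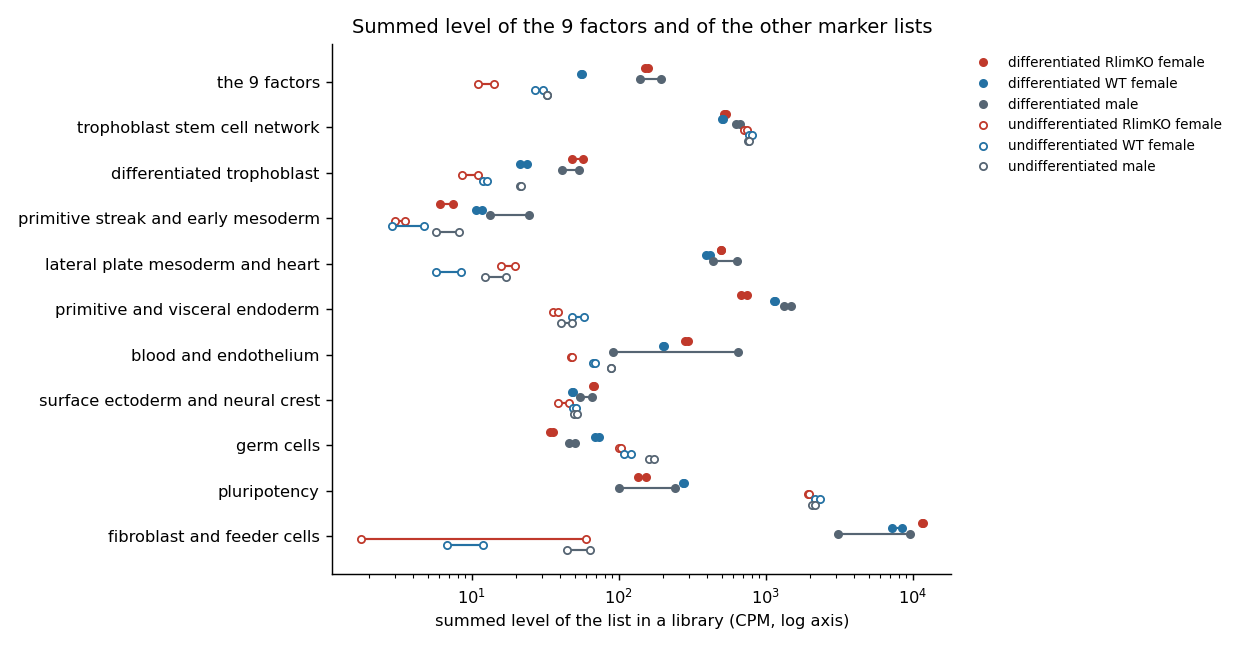
Summed level (CPM, log axis) of the 9 factors and of 10 marker lists in each library, as a pair of points joined by a line for each group, filled for differentiated and open for undifferentiated cells. The 9 factors sum to 55.0 to 193 CPM in differentiated and 11.1 to 32.7 CPM in undifferentiated libraries, of which Hand1 makes 31.4 to 154.5 CPM in the differentiated ones. The summed level of the trophoblast stem cell network is lower in differentiated cells, although more of its tested genes rose than fell in each line. Fibroblast genes span 3089 to 11732 CPM in differentiated cells.

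The genes whose pattern was most like that of a factor were looked up over the 12 libraries, by Pearson's r of log2(CPM + 1) among genes of at least 10 CPM in some group. For Hand1 these were Colec12 (r = 0.991), Slc5a3 (0.990) and Pcsk5 (0.989). Pcsk5, a proprotein convertase, had 45.7 ± 5.32, 20.1 ± 0.643 and 44.2 ± 3.34 CPM in differentiated RlimKO-labelled, WT female and male cells, against 0.505 ± 0.111, 0.477 ± 0.674 and 0.110 ± 0.156 CPM before. For Gata2 they were Igsf11 (0.956), Pld5 (0.955) and Uvrag (0.955), and Igsf11 had 39.8 ± 1.37, 6.20 ± 1.27 and 30.5 ± 12.7 CPM in the differentiated groups. For Gata3 they were Tmem214 (0.973), Vapb (0.970) and Myadm (0.968). For Tfap2c they were Pcnt (0.967), Kif22 (0.935) and Usp37 (0.927), the first 2 of which encode centrosome and spindle proteins. For Eomes they were Tprn (0.895), Pdgfc (0.892) and Pars2 (0.886), and Pdgfc had 5.44 ± 0.929 CPM in differentiated RlimKO-labelled cells against 20.3 to 31.1 CPM as the mean of the other groups. The 12 points of each r share their libraries, 2 states and 3 lines, so these values describe likeness of pattern only. Cdx2 and the 3 untested factors stayed below the 5 CPM set for this search.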

How the data were processed

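Total RNA of the 12 libraries was reverse-transcribed with template switching, amplified, tagmented and amplified again, per the labels' protocols, which describe no molecular identifiers. The authors deposited raw read counts per gene symbol. The submitters' processing notes name HTSeq (0.6.1p1) beside TopHat2 (2.0.12) and bcl2fastq (2.16.0.10). They also list edgeR (3.10.0), and mm10 as build. The annotation and the strand setting are not given in the sources used here. The 5 summary lines of the count table were set aside (reads in no gene came to 45.4% to 53.3% of all counted).

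Counts were analysed in R 4.3.3 with edgeR 4.0.16 (limma 3.58.1): TMM normalisation, genes kept by filterByExpr (minimum count 10), one model of all 12 libraries with 6 group means, quasi-likelihood F tests for 12 comparisons, and Benjamini-Hochberg adjustment over the 12814 genes kept, called below 0.05. The code was tested on simulated data. With 2 libraries a group, an exact permutation test of a single value cannot go below p = 0.33, so no such test is given. Where a group had no count, a fold is a bound from 3 counts over that group. Ratios on 1 to 3 counts carry a 95% exact conditional interval. Exon lengths and overlaps came from the GENCODE annotation of mm10, promoter windows from RefSeq. Figures were drawn with Python 3.11.15 and matplotlib 3.10.9. Alternatives were other size factors, other filters, DESeq2 1.42.0, a replicate block, smaller models, and libraries or Rn45s and Lars2 left out. Replicates of a group differed by 2.83 to 115.8 times the counting noise (chi-square per degree of freedom), and none was a copy.

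The 9 factors and all lists were chosen with earlier results of these data known. All 9 are named; from the other lists up to 4 genes with the smallest p in a comparison, and for each factor of at least 5 CPM the 3 genes of most similar pattern. Other genes named (those without counts, those called in every line, and the X-linked and placental genes described singly) were chosen after their values were seen. One gene of the heart list stands in the table under an older symbol.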

Additional observations from a re-analysis of the deposited data

Results flagged for a closer look

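Tfap2c was flagged because its change on differentiation differed between 2 lines by a test of that difference. The log2 fold change of differentiated over undifferentiated cells was 0.39 ± 0.38 in the RlimKO-labelled line and -1.92 ± 0.31 in the male line, a difference of 2.31 ± 0.48 (edgeR, adjusted p = 0.0229, n = 2 libraries a group). The RlimKO-labelled libraries had 7.97 and 10.48 CPM after and 7.59 and 6.82 CPM before differentiation, and the male libraries 4.36 and 7.41 CPM after and 23.8 and 22.5 CPM before. The groups have 2 libraries each, so none was examined for a library far from the others.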

How the results depend on the processing

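Across 1380 values of the 6 tested factors under other settings, 0 called values changed direction, 45 calls were lost, 26 were gained and 32 values that were never called changed sign. Cdx2, Hand1, and where called Gata2, Tfap2c and (outside the WT female line) Gata3 kept their differentiation calls in all 12 fits without 1 library. In the lists of 3 counts below, the order is RlimKO-labelled over WT female, WT female over male, RlimKO-labelled over male.

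DESeq2 called 1 factor against 2 between WT female and male differentiated cells, 0 against 1 between RlimKO-labelled and male ones, 70 genes against 31 between undifferentiated RlimKO-labelled and WT female cells, and 56 genes against 26 (1 factor against 0) for the difference in change between these lines. Without a filter 779 genes against 332 (3 factors against 2) were called for the first differentiated pair and 144 against 31 (1 factor against 0) for the first undifferentiated one, and for the differences in change 200 against 26 (1 factor against 0), 558 against 178 (1 against 0) and 713 against 334. A minimum count of 30 left 3 of 5 factor calls in RlimKO-labelled differentiation and 0 of 1 between RlimKO-labelled and male differentiated cells. The missing calls were those of Cdx2 and Eomes in the former and of Eomes in the latter, which no longer passed the filter and were not tested. A model of only the libraries compared left 3 of the 5 calls in RlimKO-labelled differentiation, where Cdx2 and Eomes were again filtered out and not tested. That model called 2154, 5 and 10 genes (4, 0 and 0 factors) against 332, 1149 and 1489 (2, 2 and 1) between differentiated lines, 303, 2016 and 2383 against 31, 849 and 1282 (1 factor against 0 in the first) between undifferentiated ones, and 530, 23 and 39 against 26, 178 and 334 (1, 0 and 0 factors against 0, 0 and 1) for the differences in change. Without the 2 libraries of extreme Rn45s share the counts were 1152 and 2109 genes in the first 2 differentiated pairs, 0 factors in the third, 412 (1 factor), 2266 and 2817 genes before differentiation, and 404 (1 factor), 1232 and 1311 for the differences in change.

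Leaving out 1 library gave 12 to 1680 genes (0 to 5 factors), 186 to 4391 (1 to 3) and 272 to 4530 (0 to 3) between differentiated lines, 0 to 413 (0 to 1), 167 to 2282 and 310 to 2803 (0 to 1) between undifferentiated ones, and 2 to 485 (0 to 1), 13 to 1886 (0 to 1) and 54 to 2016 (0 to 1) for the differences in change. The cause of these shifts was not tested, apart from the smaller number of libraries. With the replicate number as a block, 6146, 6246 and 6914 genes were called for differentiation of the RlimKO-labelled, WT female and male lines, 350, 1204 and 1514 between differentiated and 25, 866 and 1295 between undifferentiated lines, and 30, 200 and 351 for the differences in change, with the same number of factors called throughout. Deviations of same-numbered libraries correlated at -0.062 to 0.116 over 15 pairs of groups, 1 of them over 0.1. No pairing by number was thus seen, though the noise between replicates could hide a weak one.

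Leaving out Rn45s and Lars2 moved the median of all genes by -0.11 in RlimKO-labelled differentiation and by -0.11 in the difference in change between the RlimKO-labelled and male lines, and by less than 0.1 elsewhere. Depth limits the low factors: 1 count was worth up to 0.584 CPM, and Elf5, Tfap2a and Ascl2 were called in no comparison when fitted without a filter.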

Other observations

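Germ cell genes, of which 4, 5 and 6 of 6 fell, summed to 33.9 to 35.6, 68.6 to 73.4 and 45.5 to 50.4 CPM in differentiated RlimKO-labelled, WT female and male libraries, against 99.7 to 104, 108 to 122 and 160 to 173 CPM before. Of 10 pluripotency genes 9 fell in each line, and the list still summed to 135 to 154, 275 to 276 and 101 to 240 CPM after differentiation, against 1933 to 1952, 2170.1 to 2318 and 2069 to 2150 CPM before. Over all tested genes 21.6%, 22.2% and 25.4% were called lower in the RlimKO-labelled, WT female and male lines. Endoderm genes summed to 675 to 738, 1127 to 1149.5 and 1321 to 1479.9 CPM after differentiation, lowest in the RlimKO-labelled line, against 35.8 to 38.5, 48.3 to 58.2 and 40.6 to 47.9 CPM before.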
